A study of Mus musculus with 282 samples.

Results

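The Myc network is a group of transcription factors of the basic helix-loop-helix leucine zipper class. Its 10 members here, out of 49671 Ensembl genes in the deposited count table, were taken by gene symbol: Myc, Mycn, Mycl, Max, Mxd1, Mxd3, Mxd4, Mxi1, Mnt and Mlx. They were followed in single hematopoietic stem cells (HSCs) of mouse bone marrow, each read in its own well, and 232 of 282 cells passed a minimum of 100000 gene counts and 1000 genes.

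All cells belonged to 1 group. They were sorted by the surface markers LSK (lineage-negative, Sca-1-positive, Kit-positive), CD48-/lo and CD150+ from homozygous R26 rtTA/rtTA, Col1A1 H2B-GFP/H2B-GFP mice. These animals carry a doxycycline-dependent transactivator at Rosa26 and a histone H2B-GFP transgene at Col1a1, and the transgene had not been induced with doxycycline. The series gives 6 mice aged 12 to 22 weeks in 2 experiments, and the labels do not tie a cell to a mouse. Cells fall into 6 sets by library series (L29 or L32) and HSC code: L29 HSC-3 with 46 kept cells, L29 HSC-4 with 43, L32 HSC-2 with 22, L32 HSC-3 with 44, L32 HSC-4 with 38 and L32 HSC-5 with 39. Sets are not known to be animals, so the spread between sets (SD, n = 6 sets) may be technical.

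Kept cells held 116009 to 1680714 gene reads, with a median of 280096. In L29 HSC-4 a cell held 4151 genes in the median, where medians of the other sets ran from 5126 to 5685.5, and the median mitochondrial share was 6.66%, where the others lay between 3.28% and 3.73%. Checked against the sort label, 16 of 16 HSC markers were detected at 10 CPM (reads scaled to a common total of gene reads per cell) in at least 10% of kept cells. Of the other marker lists, 2 of 8 erythroid, 2 of 8 myeloid, 1 of 6 B cell, 0 of 6 T and NK cell, 5 of 7 megakaryocyte, 0 of 4 mast cell and 2 of 6 endothelial and stromal genes reached that share. Both myeloid genes that did were frequent, Prtn3 in 81.9% of cells (401 CPM) and Lyz2 in 87.1% (616 CPM). Of the HSC markers, Tek, Erg and Lmo2 were higher by CPM in the nearly empty wells of 2 sets, taken up further on, than in the 66 kept cells beside them (353 against 28.5, 293 against 45.9 and 1067 against 445). The marker genes Elane, Ctsg, Cd3d, Cd3g, Fcer1a and Cdh5 were detected in no kept cell.

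Myc family proteins (Myc, Mycn and Mycl) act as heterodimers with Max, bind the E-box CACGTG and related sites, and promote transcription of genes for ribosome production, metabolism and cell-cycle entry. Mxd proteins, Mxi1 and Mnt also pair with Max, occupy the same sites and recruit Sin3 corepressors. Mlx is a Max-like protein that pairs with Mondo proteins, which respond to glucose metabolites, and also with some Mxd proteins and Mnt. In mouse marrow, Myc and Mycn together are needed for the survival of HSCs, and Myc alone is known for the balance between staying in the niche and differentiating.

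The E-box was looked for in the RefSeq windows (GRCm38.p6, the mm10 build) from 250 bases before to 50 after each start site. The motif CACGTG reads alike on both strands. Of the 9 members with a window, 4 held it: Max, Mxd4, Mnt and Mlx. The windows of Mycn, Mycl, Mxd1, Mxd3 and Mxi1 did not hold these letters. Over all genes with a window, 8.09% of 27025 held the motif. Among the 9689 genes detected in at least 10% of kept cells, 6658 had a window, and 12.8% of those held it. These 4 stretches are shown because they carry the network's own recognition sequence near the start sites of its members. Each is given 5′ to 3′ on the gene's strand with the motif in capitals.
Mxd4: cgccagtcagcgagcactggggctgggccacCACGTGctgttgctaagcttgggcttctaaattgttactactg
Mnt: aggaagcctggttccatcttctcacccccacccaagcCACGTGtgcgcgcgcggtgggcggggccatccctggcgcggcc
Mlx: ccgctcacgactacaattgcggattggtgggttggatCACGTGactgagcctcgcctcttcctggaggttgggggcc
Max: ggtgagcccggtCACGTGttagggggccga

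The Mxd4 stretch is chr5:34187887-34187960 on the minus strand, with the motif's first base 219 bases upstream of the start site. The Mnt stretch is chr11:74830764-74830843 on the plus strand, with the motif 123 bases upstream. The Mlx stretch is chr11:101087213-101087289 on the plus strand, with the motif 40 bases upstream. The Max stretch is chr12:76962234-76962263 on the minus strand, and its motif begins 3 bases before the start site. A match is a description of the letters and not a measured binding site.

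In these HSCs Myc, Mycn and Max were the members most often read, and the antagonists were each found in a minority of cells. Mycn was detected in 173 of 232 cells, 74.6% (exact 95% interval 68.5% to 80.0%), Myc in 133, 57.3% (50.7% to 63.8%), and Max in 95, 40.9% (34.6% to 47.6%). Detection means at least 10 CPM, which is 2.8 reads in the median kept cell, and the intervals cover counting error only. Mxd4 (18.5%), Mlx (16.4%), Mxd1 (14.7%), Mnt (14.7%) and Mxi1 (14.2%) came next, Mxd3 reached the threshold in 1 cell and Mycl in none.

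**Figure D1:**
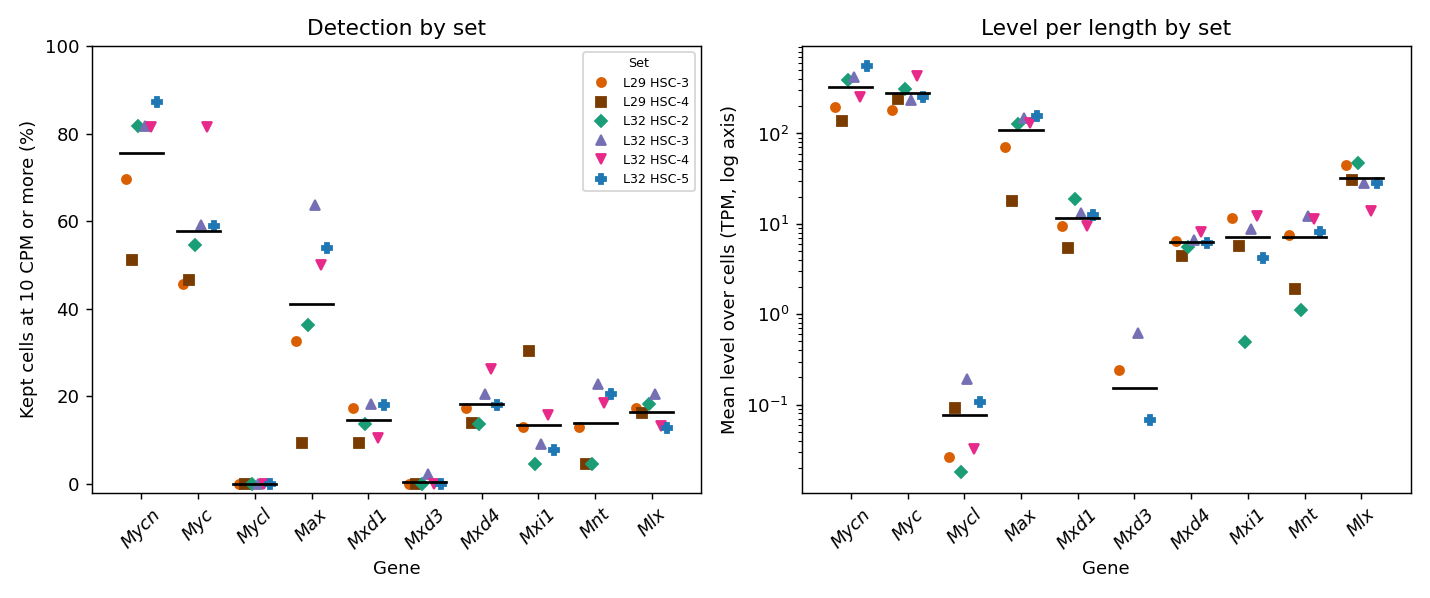
Detection (left, percent of kept cells at 10 CPM or more) and level (right, mean TPM on a log axis) of each member; dots are the 6 sets and bars the mean of the sets, and sets at 0 are not drawn on the log axis. The means of Myc, Mycn and Max lie above those of the other members on both scales, and Max ranges from 9.30% to 63.6% between sets.

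Levels between genes were set side by side per length, as TPM (reads per exonic base, scaled to a common total per cell) averaged over the cells of a set. The transcribed gene Mycn, on chromosome 12 (mm10, 12936096 to 12941914, minus strand, 3292 exonic bases), had 197 TPM in L29 HSC-3, 137 in L29 HSC-4, 387 in L32 HSC-2, 424 in L32 HSC-3, 256 in L32 HSC-4 and 554 in L32 HSC-5. Both L29 sets were thus below the 4 L32 sets. Its mean level was 326 TPM ± 157 (SD, n = 6 sets), above that of 95.4% of the 9689 genes detected in at least 10% of kept cells.

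Myc, the founding member of the family, lies on chromosome 15 (61985391 to 61990374, plus strand, 2717 exonic bases). Its level was 183 TPM in L29 HSC-3, 239 in L29 HSC-4, 313 in L32 HSC-2, 236 in L32 HSC-3, 436 in L32 HSC-4 and 255 in L32 HSC-5. The sets of both library series overlapped, and L32 HSC-4 was the highest. The mean was 277 TPM ± 88.2 (SD, n = 6 sets), above 94.6% of the detected genes. Mycn exceeded Myc by 48.9 TPM ± 178 (SD, n = 6 sets) and in 4 of 6 sets, so the order of these 2 levels was within the spread between sets.

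By detection the order was clearer. Mycn was found in 69.6% and 51.2% of cells in L29 HSC-3 and L29 HSC-4, and in 81.8%, 81.8%, 81.6% and 87.2% of L32 HSC-2 to L32 HSC-5. Myc was found in 45.7% and 46.5% of cells in the L29 sets, and in 54.5%, 59.1%, 81.6% and 59.0% of L32 HSC-2 to L32 HSC-5. Mycn led in 5 of 6 sets and was level in L32 HSC-4, with a difference of 17.8 percentage points ± 12.2 (SD, n = 6 sets).

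Mycl, the third Myc paralog, is on chromosome 4 (122995652 to 123002485, plus strand). It reached 10 CPM in 0 of 232 cells, which allows a share of up to 1.29% by a limit of 3 cells, and up to 1.58% by the exact interval used for the other members, and 12 cells held 13 reads in all. Its level averaged 0.0778 TPM over the 6 sets. At this depth Mycl transcripts were not detectable in most cells, and a lack of reads does not show that they were absent.

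Max is the obligate partner of the Myc proteins and also pairs with the Mxd and Mnt proteins. It lies on chromosome 12 (76937269 to 76962248, minus strand, 2005 exonic bases). Max was detected in 32.6% of cells in L29 HSC-3, 9.30% in L29 HSC-4, 36.4% in L32 HSC-2, 63.6% in L32 HSC-3, 50.0% in L32 HSC-4 and 53.8% in L32 HSC-5. The lowest of these sets was L29 HSC-4, the set with the fewest genes per cell, and the part of that difference in the Max value was not tested. Over the other 5 sets together Max was detected in 48.1% of cells. Its level was 108 TPM ± 53.6 (SD, n = 6 sets), below Myc in 6 of 6 sets by more than the spread between sets. When each cell was thinned to 100000 reads and 1 read counted as detection, Max was found in 41.8% of cells, Myc in 60.8% and Mycn in 76.3%.

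The 5 antagonists were low in these cells. Mxd1 (chromosome 6, 86647042 to 86669161, minus strand), known from mouse and human myeloid differentiation, was detected in 17.4% and 9.30% of cells in L29 HSC-3 and L29 HSC-4, and in 13.6%, 18.2%, 10.5% and 17.9% of L32 HSC-2 to L32 HSC-5. Its level averaged 11.5 TPM ± 4.53 (SD, n = 6 sets), and the sets of both library series overlapped. Mxd4 (chromosome 5, 34173883 to 34187720, minus strand) was detected in 17.4% and 14.0% of cells in the L29 sets, and in 13.6%, 20.5%, 26.3% and 17.9% of the L32 sets. It averaged 6.25 TPM ± 1.25 and varied little between sets on that scale. In reads summed per set, however, Mxd4 was at 77.7 CPM in L32 HSC-2 against 24.8 to 33.5 CPM in the other sets. Mnt (chromosome 11, 74830920 to 74845725, plus strand), the most widely expressed antagonist in mouse tissues, was detected in 13.0% and 4.65% of cells in the L29 sets, and in 4.55%, 22.7%, 18.4% and 20.5% of the L32 sets. It averaged 7.07 TPM ± 4.68, with L29 HSC-4 and L32 HSC-2 low. Mxi1 (chromosome 19, 53310506 to 53375810, plus strand), an Mxd family member, was detected in 4.55% to 30.2% and averaged 7.21 TPM ± 4.57 (SD, n = 6 sets). Neighbours in the order Mxd1, Mxi1, Mnt and Mxd4 did not differ beyond the spread between sets. Mxd3 (chromosome 13, 55325168 to 55329758, minus strand), which is known from proliferating progenitors, was at 0.154 TPM, with 18 reads over 5 cells, of which 1 passed the threshold. Among the 9689 detected genes, Mxd1 stood above 22.5%, Mxi1 above 11.1%, Mnt above 10.6% and Mxd4 above 8.39%.

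Mlx, the Max-like partner of Mondo proteins, lies on chromosome 11 (101087277 to 101092207, plus strand). It was detected in 17.4% and 16.3% of cells in the L29 sets, and in 18.2%, 20.5%, 13.2% and 12.8% of the L32 sets in order of code, the narrowest range of the members detected in at least 10% of cells. Its level was 32.2 TPM ± 12.3 (SD, n = 6 sets), below Max in 5 of 6 sets and above Mxd1 in 6 of 6, both by more than the spread between sets. Some members share exonic bases with a gene on the other strand. Mlx shares 385 with Psmc3ip (16.9 CPM), and Mxd3 shares 104 with Prelid1 (89.1 CPM). Mxd4 and Mxi1 share 514 and 194 with genes at 0 CPM. Whether counting used strand is not stated by the labels or the table, so reads in the Mlx and Mxd3 overlaps cannot be assigned.

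Cells that held Myc, Mycn or Max mostly held them well above threshold. In detecting cells the median was 468 CPM for Myc (quartiles 246 and 851), 579 CPM for Mycn (286 and 937) and 235 CPM for Max (140 and 362). Such medians also lay well above threshold for Mxd1 (255 CPM), Mlx (204 CPM), Mxd4 (127 CPM), Mxi1 (105 CPM) and Mnt (102 CPM). The Mxd1 median was thus above the Max median. The highest single cells reached 4460 CPM for Myc, 4034 CPM for Mycn and 1002 CPM for Max. The 23 cells with the most reads of a gene carried 48.8% of the Myc level, 37.8% of the Mycn level and 48.8% of the Max level. For the antagonists the same share was 78.3% for Mxd4, 88.7% for Mnt, 91.2% for Mxd1 and 93.4% for Mxi1, so their mean levels rested on few cells.

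Near-empty wells gave a background for these values. Of the wells left out, 38 (22 in the code HSC-2 of L32 and 16 in its code HSC-3) held 616795 gene reads in all, and their summed CPM was set beside the 66 kept cells of the same sets. Mycn was at 77.8 CPM in the near-empty wells against 803 CPM in the kept cells, and Myc at 25.9 against 415. Max was at 3.24 against 156 (2 reads), Mlx at 1.62 against 38.2 and Mxd1 at 1.62 against 50.1 (1 read). Each of these 5 members was thus far lower in the near-empty wells, though Max, Mlx and Mxd1 rest on 1 or 2 reads there. Mxd4 was at 21.1 CPM against 45.9, and Mnt at 13.0 against 22.7, all 8 reads of the latter in 1 well. Reads passed 10 CPM in 11 of 38 near-empty wells for Mycn, 5 for Myc, 7 for Mxd4 and 1 for Mnt. Their summed levels there were above that detection threshold too, and higher for Mycn than for Myc. The part of such reads in the detection of these members was not tested.

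**Figure D2:**
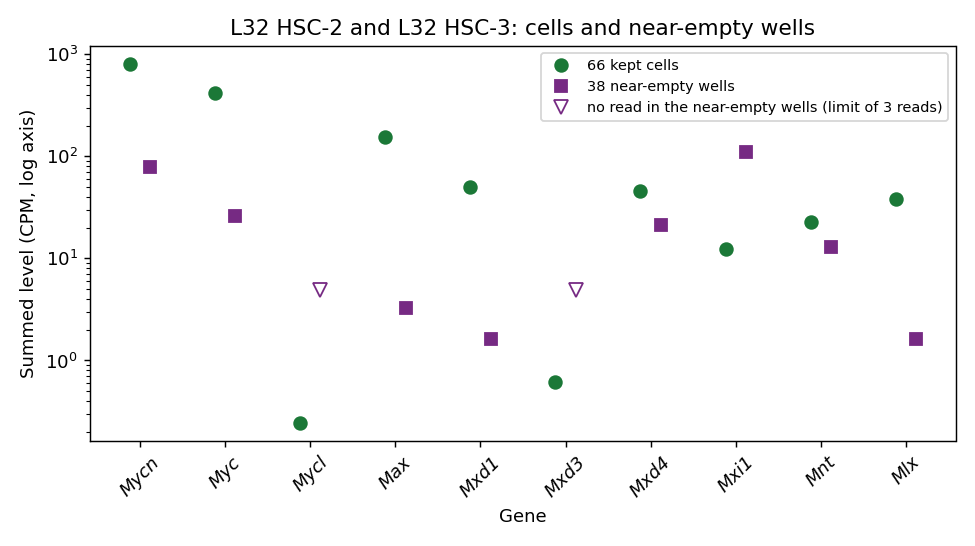
Summed CPM (log axis) of each member in the 66 kept cells and in the 38 near-empty wells of those same sets; open triangles mark members with no read in the near-empty wells, drawn at the limit of 3 reads, 4.86 CPM. Mxi1 is the member that lies higher in the near-empty wells, at 110 CPM against 12.3 CPM.

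Mxi1 went the other way, with 110 CPM in the near-empty wells against 12.3 CPM in the kept cells. Its 68 reads there lay in 28 of 38 wells, and without the well with the most it was at 102 CPM. In the 66 kept cells it had 300 reads. Over all kept cells, the 33 that detected Mxi1 had a median of 105 CPM (quartiles 25.1 and 292). A near-empty well held 8793.5 gene reads in the median, so that a single read there is a high CPM. Where the reads of these wells come from, and the part of such reads in the Mxi1 detection, was not tested. Its detection was highest in L29 HSC-4, at 30.2%, against 4.55% to 15.8% in the other sets and 10.6% over them together.

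Most cells held Mycn, Myc or both. Of 232 cells, 101 held both (43.5%, exact 95% interval 37.1% to 50.2%), 72 held Mycn alone (31.0%, 25.1% to 37.4%), 32 held Myc alone (13.8%, 9.63% to 18.9%) and 27 held neither (11.6%, 7.81% to 16.5%). Over the sets, both were detected in 43.9% ± 14.2 of cells, Mycn alone in 31.6% ± 9.47, Myc alone in 13.8% ± 4.25 and neither in 10.7% ± 10.1 (SD, n = 6 sets). Cells with both made up 32.6% of L29 HSC-3, 25.6% of L29 HSC-4, 40.9% of L32 HSC-2, 50.0% of L32 HSC-3, 65.8% of L32 HSC-4 and 48.7% of L32 HSC-5. Mycn alone was more frequent than Myc alone in every set but L32 HSC-4, where each made up 15.8%. Cells with neither made up 17.4% of L29 HSC-3 and 27.9% of L29 HSC-4, and 2.56% to 9.09% of the L32 sets. If detection of the 2 genes were independent within each set, 101.3 cells would hold both, close to the 101 counted. Mycn was found in 75.9% of the cells with Myc and in 72.7% of those without.

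The cells with neither gene were shallower. Their median was 213364 reads, 4325 genes and a mitochondrial share of 5.59%, against 295378 reads, 5571 genes and 3.41% in cells with both. Of the 27, 12 were of L29 HSC-4, and without that set cells with neither made up 7.94%. With every cell thinned to 100000 reads, both were found in 47.4%, Mycn alone in 28.9%, Myc alone in 13.4% and neither in 10.3%.

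**Figure D3:**
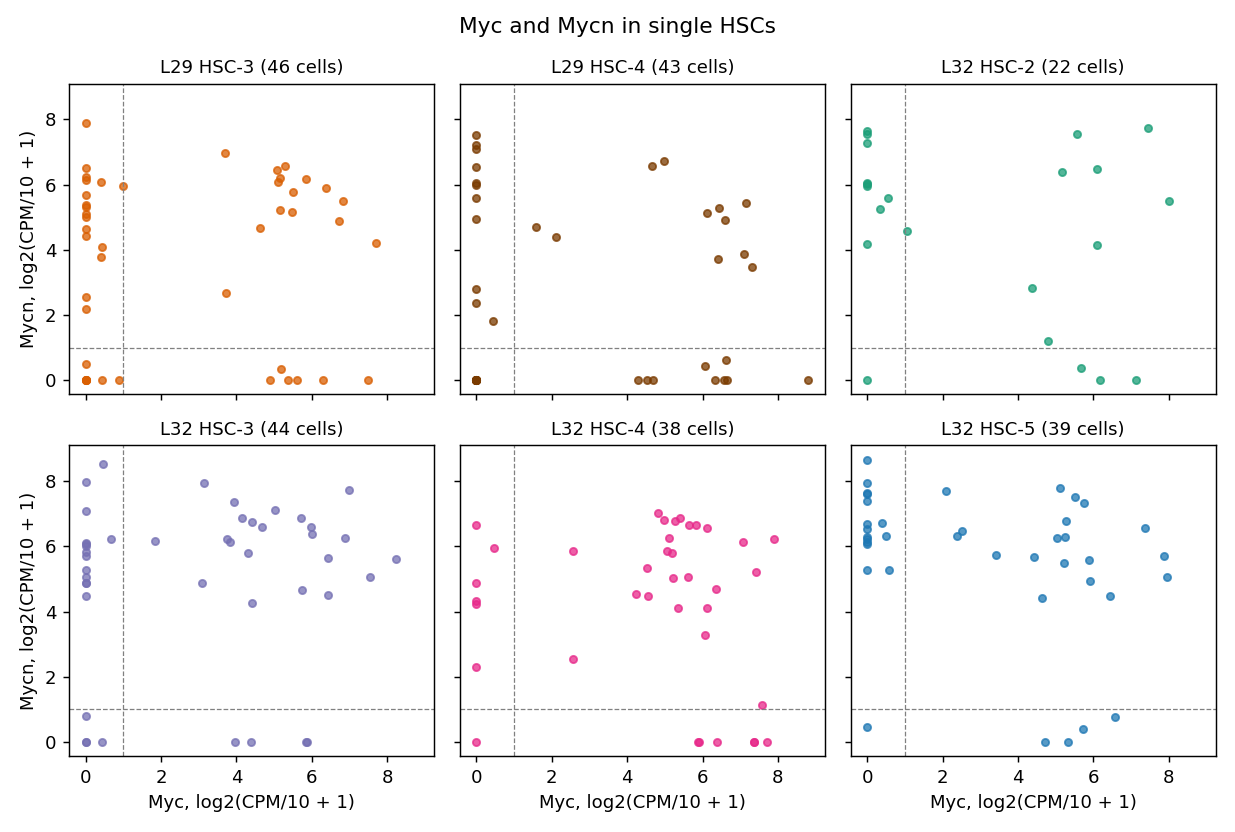
Myc (x axis) and Mycn (y axis) in each kept cell as log2(CPM/10 + 1), 1 panel per set; dashed lines mark 10 CPM. Cells with both genes fill the upper right of each panel, and 72 of 232 cells lie on the Mycn side alone against 32 on the Myc side alone.

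Among the 101 cells with both, the ratio of Mycn to Myc spread widely around 1. The log2 ratio of their TPM had a median of 0.09, with quartiles of -1.47 and 1.51 and extremes of -7.56 and 5.71. Mycn was the higher in 54 cells. It was at least 4-fold higher in 17, Myc was at least 4-fold higher in 20, and the other 64 lay within 4-fold. The log2 ratio of the set means was 0.13 ± 0.80 (SD, n = 6 sets), positive in 4 of 6.

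Max was found in 91 of the 205 cells with Myc or Mycn, 44.4%, and in 4 of the 27 without, 14.8%. It was found in 62 of 133 cells with Myc (46.6%) against 33 of 99 without (33.3%), and in 80 of 173 cells with Mycn (46.2%) against 15 of 59 without (25.4%). The cells with neither gene were shallower, as given above, and the part of depth in these Max shares was not tested. Of the 5 antagonists, 122 cells held none (52.6%), 81 held 1, 23 held 2 and 6 held 3. At least 1 antagonist was found in 94 of the 205 cells with Myc or Mycn and in 16 of the 27 without. These antagonist counts include Mxi1, which was higher by CPM in the near-empty wells and was detected most in L29 HSC-4 (30.2%). That set gave 12 of the 27 cells, and the part of Mxi1 in these counts was not tested. The counts also include Mxd4 and Mnt, which were at 21.1 and 13.0 CPM in the near-empty wells. A cell held a median of 2.5 of the 10 members, from 0 to 6, and 9 cells held none.

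Co-variation was measured within each set as a partial Spearman rho given genes detected, total counts and plate, and averaged over the 6 sets. Points of a correlation share library and depth, so the values are descriptions. Of the 28 pairs among the 8 members detected in at least 10% of cells, none had 1 sign in all 6 sets. The lowest was Myc with Mycn, at -0.15 ± 0.15 (SD, n = 6 sets), with -0.06 in L29 HSC-3, -0.20 in L29 HSC-4, -0.23 in L32 HSC-2, 0.09 in L32 HSC-3, -0.24 in L32 HSC-4 and -0.34 in L32 HSC-5. It was negative in 5 of 6 sets. Over all genes with Myc, the 5th percentile was -0.11 and the 95th 0.12, so this pair lay below the range of most genes. The highest was Mxd1 with Mxi1, at 0.13 ± 0.22, positive in 4 of 6 sets. In counts as sparse as these, values of this size are not read as a finding.

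**Figure D4:**
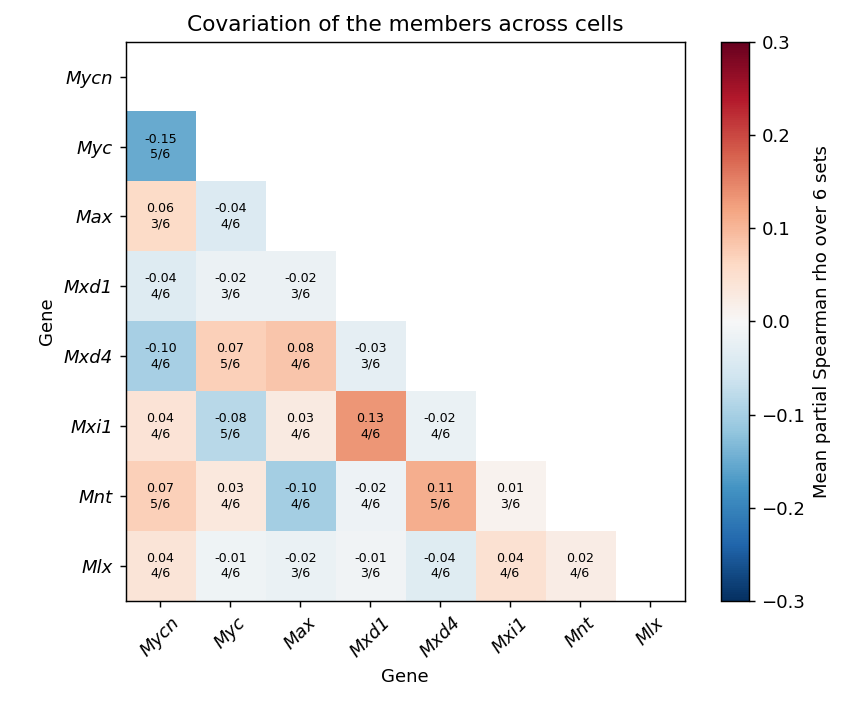
Mean within-set partial Spearman rho over 6 sets for each pair of the 8 members detected in at least 10% of kept cells (colour), with the number of sets that share its sign. The values run from -0.15 for Myc with Mycn to 0.13 for Mxd1 with Mxi1, and no pair has the same sign in all 6 sets.

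Scores over gene lists were set against each of the 8 members detected in at least 10% of cells, and are given mainly for Myc, Mycn and Max. For the V2 Myc target list (52 genes measured, mainly ribosome biogenesis and nucleolar factors), rho was 0.12 ± 0.10 with Myc, positive in 5 of 6 sets, and 0.11 ± 0.09 with Mycn, positive in 6 of 6. Gene by gene, 30 of 52 were positive with Myc and 33 of 52 with Mycn, with medians of 0.015 and 0.022. Over all genes 50.6% were positive with Myc and 48.6% with Mycn, with medians of 0.001 and -0.003. Nop16, a nucleolar protein of ribosome assembly, had 0.16 with Myc and 0.16 with Mycn, positive in 5 and 6 of 6 sets. Nop2, a ribosomal RNA methyltransferase, had 0.22 with Mycn, positive in 6 of 6 sets, but -0.03 with Myc. At the low end of this list, Ung had -0.15 with Mycn, positive in 0 of 6 sets. Ddx18 had -0.10 with each, positive in 2 of 6 sets. Of the classic Myc targets, 9 of 16 were positive with Myc and 8 of 16 with Mycn, and Ccnd2, a G1 cyclin, had 0.25 ± 0.21 with Mycn, positive in 5 of 6 sets. The lowest classic targets were Ptma with Mycn (-0.14 ± 0.25, positive in 1 of 6 sets) and Odc1 with Myc (-0.09 ± 0.10, positive in 2 of 6).

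The list of long-term HSC genes differed in sign between Myc and Mycn. With Myc, 5 of 20 were positive (median -0.040), and with Mycn 16 of 20 (median 0.061). The score had -0.13 ± 0.15 with Myc (4 of 6 sets negative) and 0.17 ± 0.25 with Mycn (4 of 6 positive, with 0.52 in L32 HSC-5 and 0.09 averaged over the other sets). Mecom, a transcription factor that HSCs need for self-renewal, had -0.26 ± 0.15 with Myc (0 of 6 sets positive) and 0.17 ± 0.17 with Mycn (5 of 6 positive). Hlf, another stem cell transcription factor, went the opposite way, at 0.16 ± 0.15 with Myc (4 of 6 positive) and -0.23 ± 0.17 with Mycn (0 of 6). Slamf1, which encodes the CD150 of the sort gate, had -0.09 with Myc (0 of 6) and 0.16 with Mycn (5 of 6). The difference between the Myc and Mycn values was not tested. Of the 20 genes, 4 were higher by CPM in the near-empty wells than in the kept cells beside them.

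The Mycn rho with the G2/M score was -0.26 ± 0.25, negative in 5 of 6 sets, with -0.67 in L32 HSC-4 and -0.17 averaged without that set. Only 4 of the 30 G2/M genes were measured, and 1 of them, the condensin subunit Smc4, had 418 CPM in near-empty wells but 122 CPM in the kept cells beside them. The S phase score had 0.05 with Myc and 0.02 with Mycn, although gene by gene 14 of 23 were positive with Myc and 5 of 23 with Mycn (median -0.082). Max had -0.22 ± 0.11 with the HSC identity score, negative in 6 of 6 sets. Gene by gene 4 of 16 were positive (median -0.065) beside 48.5% of all genes (median -0.003). Of these 16 genes, 3 were higher by CPM in the near-empty wells than in the kept cells beside them. Mnt had -0.15 ± 0.12 with the long-term HSC score, also negative in 6 of 6. It is named as the only value with 1 sign in all sets among the scores of the remaining members. RNA content, measured as gene reads per spike-in read, had 0.09 ± 0.02 with Myc, positive in 6 of 6 sets, and -0.08 ± 0.10 with Mycn, negative in 5 of 6.

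**Figure D5:**
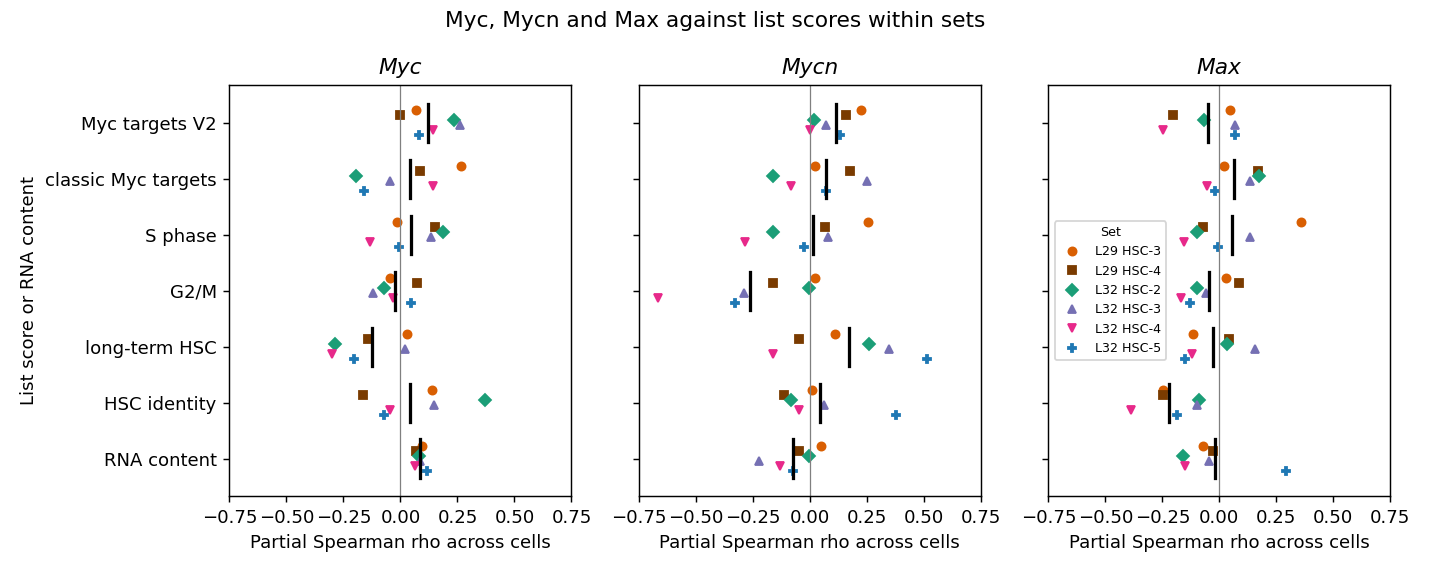
Partial Spearman rho of Myc, Mycn and Max with 6 list scores and with RNA content (gene reads per spike-in read); dots are the 6 sets and bars the weighted mean of the sets. The Max values with HSC identity lie below 0 in every set, and the Mycn values with G2/M run from -0.67 to 0.02.

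Of the genes with 1 sign in all 6 sets, those most like Myc were Elp2 (0.24), an Elongator subunit, Actr2 (0.23), a subunit of the actin-nucleating Arp2/3 complex, Vgll4 (0.23), Lyn (0.22) and Dap3 (0.22), a mitochondrial ribosome protein. The most opposite were Abcg3 (-0.27), Mecom (-0.26), Tmem186 (-0.24), Pax8 (-0.22) and Rsf1 (-0.22). For Mycn the highest were Eef2 (0.28), a translation elongation factor, Pdha1 (0.27), a pyruvate dehydrogenase subunit, Hmga1 (0.25), Cox20b (0.25) and Bcl7b (0.24), and the lowest were Il15 (-0.26), Slc28a2 (-0.25), Rsbn1 (-0.24), Vamp1 (-0.23) and Tmem208 (-0.23). For Max the highest were Pcyt1a (0.25), a phosphatidylcholine synthesis enzyme, Rwdd3 (0.23), Wdr75 (0.23), Phf1 (0.22) and Rab32 (0.22), and the lowest Fbxo3 (-0.24), Sh2d5 (-0.22), Rprd1a (-0.22), Hmgcs1 (-0.21) and Cdc123 (-0.21). These are the extremes of 9688 genes. In the Myc ranking, 191 genes were positive and 178 negative in all 6 sets, so about as many of one sign as of the other.

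The other genes of the pathway were widely read. Of 22 network partners, 21 were detected in at least 10% of kept cells, led by the corepressor Ncor1 (173 CPM), the Max dimer partner Mga (156), the chromatin factor Bptf (151) and the Tip60 complex subunit Ep400 (147). Of 19 genes of Myc protein turnover, 13 were detected, including Ppp2r1a (256 CPM), the ubiquitin ligase Huwe1 (180) and Usp22 (148), whereas Fbxw7, the ubiquitin ligase subunit that marks Myc for decay, was found in 14.7% of cells. Of the V2 targets 52 of 58 were detected, with Npm1 at 797 CPM in 98.7% of cells, and of the classic targets 16 of 18, led by Ncl (966 CPM). Some of these genes were, as Mxi1 was, higher by CPM in the near-empty wells than in the 66 kept cells beside them. This held for 5 of the 21 detected partners, 5 of the 13 turnover genes, 6 of the 52 V2 targets and 3 of the 16 classic targets. Among them were Ncl (1438 against 1089 CPM) and Fbxw7 (45.4 against 19.8 CPM). The part of reads like those of the near-empty wells in their levels was not tested. With Myc, 8 of the 21 partners and 5 of the 13 turnover genes had a positive rho, and with Mycn 7 of 21 and 8 of 13. Of the Mlx and Mondo targets 3 of 5 were positive with Myc and 2 of 5 with Mycn, of the adhesion genes 3 of 6 and 1 of 6, of the HSC identity genes 9 of 16 with each, and of the genes repressed by Myc 1 of 2 and 0 of 2. Of the 9 genes that Myc is known to repress, 2 were detected, Ndrg1 in 36.2% and Ndrg2 in 15.9% of cells. Txnip, a Mondo and Mlx target, was found in 98.3% of cells at 1873 CPM. Of the V2 target promoters with a RefSeq window, 15 of 53 (28.3%) held CACGTG, and of the classic ones 4 of 16 (25%), against 8.09% of all genes. Detected genes are the closer comparison, and 12.8% of the 6658 with a window held the motif. Both backgrounds are incomplete. A window was at hand for 6658 of 9689 detected genes, and for 27025 genes beside 49671 Ensembl genes in the count table. No excess is therefore read from these shares.

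The labels also allow the library series to be compared. Reads were summed per set, and the 4 L32 sums were compared with the 2 L29 sums by edgeR's quasi-likelihood test with Benjamini-Hochberg adjustment over 16476 genes. This p measures only the spread between sets. No gene passed an adjusted p of 0.05 (percent called 0), with 1433 genes at an unadjusted p under 0.05, while DESeq2 called 410 of 14791. No gene of the 11 lists was called, and Mycl and Mxd3 fell below the filter on low counts.

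Of the 8 members tested, Max and Mycn had set values that did not overlap between the library series. That is near the share over all genes tested, 22.5%, and is not read as a result about the members. Both were higher in L32, as were 7.87% of all genes tested, a direction not set beforehand. Max was at 83.9 and 23.2 CPM in the L29 sums and at 167, 149, 169 and 177 in the L32 sums, a log2 difference of 1.73 ± 0.50 (SE), adjusted p = 0.45 by edgeR. Without L29 HSC-4 the Max difference was 1.11, and without L29 HSC-3 it was 2.87, so it rests in part on L29 HSC-4. Mycn was at 378 and 298 CPM in the L29 sums and at 846, 775, 412 and 921 in the L32 sums, a log2 difference of 1.21 ± 0.35 (SE), adjusted p = 0.44 by edgeR. DESeq2 gave adjusted p = 0.0193 for Max and 0.0328 for Mycn, whereas the other edgeR settings gave adjusted p from 0.311 to 0.829 for Max and from 0.355 to 0.952 for Mycn. Myc differed by 0.28 ± 0.38 (adjusted p = 0.868 by edgeR), with 290 and 477 CPM against 582, 303, 532 and 352, and its sets overlapped. The other 5 members tested ran from -0.85 for Mxi1 to 0.65 for Mnt, with adjusted p from 0.795 to 0.856 by edgeR. Without L29 HSC-4 the Mycn difference was 1.10, and with a stricter cell filter (198 cells kept) it was 0.76. With codes HSC-3 and HSC-4 alone and the code as a block it was 0.79. L29 HSC-4 had the fewest genes per cell and the highest mitochondrial share, and the part of these in the differences was not tested.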

How the data were processed

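The deposited values are raw read counts, 1 for each gene in each cell, which the authors had not normalized. The submitters' processing notes name GSNAP, featureCounts 1.6.2 and the build mm10. The table names Ensembl 87 as its annotation. The sources used here do not give how strand and multiply mapped reads were handled. Reverse transcription used an oligo(dT) primer and template switching, with 22 PCR cycles and 700 pg of cDNA per library, per the labels' protocols. There are no molecular identifiers, so intervals and floors cover counting error only.

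Members and gene lists were chosen with earlier results of these data known. Rows other than the 49671 Ensembl genes stayed out of totals. CPM and TPM were computed from the deposited counts and exon lengths, and correlations used log2(CPM/10 + 1). The rho of each set was averaged on the Fisher z scale with weights by its number of cells. Network members were named in full. Also named were the 5 genes most and least like Myc, Mycn and Max. Of the lists, leading genes by CPM and genes high or low by rho were named. No cell was removed as a doublet, since sorting was for 1 cell per well. All 282 count profiles were distinct, so none was entered more than once, which cannot show whether a well held a doublet. Tests used edgeR 4.0.16 (TMM, filterByExpr) and DESeq2 1.42.0 in R 4.3.3, and the rest Python 3.11.15. The scripts were tested on simulated data.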

Additional observations from a re-analysis of the deposited data

Results flagged for a closer look

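Over the 6 sets, 108 series of values were examined and 4 had a set far from the others, where chance alone flags about 1 in 20. Myc was detected in 81.6% of cells of L32 HSC-4 against 59.1% in the next set, a gap of 0.626 of the whole range. Mxd3 was detected in 2.27% of cells of L32 HSC-3, which is 1 cell, and in 0 of the others. The rho of Mycn with the HSC identity score was 0.38 in L32 HSC-5 against 0.06 in the next set. The rho of Max with RNA content was 0.29 in L32 HSC-5 against -0.03 in the next set.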

How the results depend on the processing

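Leaving out 1 set at a time gave 52.6% to 60.2% of cells for Myc, 72.0% to 79.9% for Mycn, 39.2% to 47.6% for both, 12.2% to 14.9% for Myc alone, 29.5% to 34.0% for Mycn alone, 7.94% to 13.5% for neither, -0.21 to -0.11 for the rho of Myc with Mycn, -0.06 to 0.32 for the log2 ratio of Mycn to Myc levels, and 0 genes called between library series. That ratio, 0.13 from mean TPM, was 1.32 from mean log2(TPM + 1), which weights cells with no read more. Between library series 2 genes were called without a filter on low counts, 1 with the stricter cell filter and 410 by DESeq2; the cause was not tested. The log2 difference between library series changed sign for Myc without L29 HSC-3 (-0.061, with a range of -0.061 to 0.76 leaving out each set). It changed sign for Mxd4 without L32 HSC-2 (-0.0024, range -0.0024 to 0.74), with the stricter filter (-0.34) and with codes HSC-3 and HSC-4 alone and the code as a block (-0.066). It changed sign for Mnt without L29 HSC-4 (-0.0037, range -0.0037 to 1.92). None of these passed the test. With plate as the only covariate, Myc with Mycn was -0.09, positive in 3 of 6 sets, the rho with V2 targets was 0.21 for Myc and 0.22 for Mycn, and the rho of Mycn with RNA content was 0.10 in place of -0.08. Of the other values, 134 of detection and classes and 825 of rho stayed within the spread between sets, and 6 and 7 moved beyond it. Depth limits Mycl and Mxd3, which rest on 13 and 18 reads.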
